A study of Mus musculus with 47 samples.

Results

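Mast cell genes were examined as a set of 9: the tryptases Tpsb2 and Tpsab1, the chymases Cma1 and Mcpt4, the carboxypeptidase Cpa3, the receptor genes Kit, Fcer1a and Ms4a2, and the histamine synthesis gene Hdc. They were listed by name and read from the first column of every count file, where all 9 of them were found among 23416 genes. The set was chosen by its Tpsb2 counts, which were near 0 in the KO-F1 and high in the KO-F2 sperm libraries, so the difference between those groups is described below without a test. RNA was sequenced from liver and from swim-up purified motile spermatozoa of the cauda epididymis of males aged 8 to 12 weeks, as 2 biological replicates of each group. The KO-F1 males were fathered by males lacking Scml2, an X-linked Polycomb gene of the germline, through intracytoplasmic injection of testicular sperm (ICSI), and carry no mutant allele because sons receive the Y chromosome. Ctrl-F1 males were made by ICSI from wild-type littermates of those fathers, and both F1 groups are labelled with the background BDF2. KO-F2 males, labelled BDF3, were born to C57BL/6 females mated naturally with KO-F1 males, and they have no control group of their own generation among these libraries. They are therefore set against Ctrl-F1 males. Generation, mode of conception and background cannot be told apart from descent in that comparison. The labels name a sequencing run for the KO-F2 but not for the F1 sperm libraries. A difference in run is therefore not known and could not be told apart either.

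Liver libraries held 11339729 to 14278900 counts, F1 sperm libraries 1503733 to 2778171 and the KO-F2 sperm libraries 8384266 and 11462105. A library's detection limit was set at 3 counts, which is 1.08 to 2.00 CPM (counts divided by library size and rescaled) in F1 sperm libraries and 0.262 and 0.358 CPM in KO-F2 sperm libraries. Intervals and limits cover counting error only, since sperm cDNA was amplified by PCR. Scml2 itself had 0 to 18 counts in each sperm library and 0 in each liver library. The 10 spermatid markers (protamines, transition proteins and flagellar genes) summed to 42970 CPM or more in every sperm library and to at most 1.26 CPM in liver, and the 5 liver markers to at most 1.65 CPM in sperm, so each library carried the markers of its labelled tissue.

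Mast cells are tissue-resident immune cells of connective tissue and mucosa. Their secretory granules store proteases bound to the proteoglycan serglycin together with histamine, and they are released when IgE bound to the high-affinity receptor FcεRI is crosslinked by antigen. Survival of the cells depends on KIT, the receptor for stem cell factor. Tryptases, chymases and carboxypeptidase A3 mark the connective tissue type of mast cell in mice, whereas the mucosal type is known for other chymases, Mcpt1 and Mcpt2. Mast cells are not part of the germline, and mature spermatozoa are regarded as transcriptionally silent.

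The genes lie in small clusters on GRCm38. Tpsb2 (chr17:25366308-25368096, plus strand) and Tpsab1 (chr17:25343245-25345562, minus strand, annotated in RefSeq as a transcribed pseudogene) are separated by 20746 bases. Cma1 (chr14:55941451-55944675) and Mcpt4 (chr14:56059744-56062310) sit on the minus strand 115069 bases apart. Cpa3 (chr3:20215616-20242209, minus strand), Kit (chr5:75574987-75656722, plus strand), Fcer1a (chr1:173221269-173227232, minus strand), Ms4a2 (chr19:11615517-11623790, minus strand) and Hdc (chr2:126593659-126624025, minus strand) are dispersed. Because neighbours of a protease cluster are similar in sequence, the longest transcript of each gene was cut into windows of 75 bases, the read length, and looked up in the transcripts of every other gene. Tpsb2 and Tpsab1 shared no window with each other or with any other gene. Mcpt4 shared 26 of 1034 windows with Cma2, Cma1 shared 17 of 1016 with Gm48934, Ms4a2 shared 38 of 2317 with Ms4a4b, and the other members shared none.

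RefSeq promoter windows (GRCm38.p6, 250 bases before to 50 after the start site) were at hand for 7 of the 9 genes, with Tpsb2 and Tpsab1 the exceptions. They were searched on both strands for AGATAA and, with another first letter, for TGATAA, and for the same words ending in G, which are AGATAG and, with the other first letter, TGATAG. These are forms of the site bound by GATA factors such as GATA2, a regulator of mast cells. A form was present in 6 of the 7 windows, Kit being without one, and in 29.8% of the 32851 promoter windows in the table. For the E-box form CATGTG and the palindromic form CACGTG, both of which MITF can bind, Fcer1a alone had a match, against 20.4% of all windows. A match is a description of the letters and not of binding. Fcer1a and Hdc had 1 GATA form each and Ms4a2 had 3. The windows of Cma1, Mcpt4 and Cpa3 are shown because these proteases had the highest KO-F2 levels among the 7 genes with a window, with the GATA form in capitals, read 5′ to 3′ along the gene.
Cma1, chr14:55944626-55944925, minus strand: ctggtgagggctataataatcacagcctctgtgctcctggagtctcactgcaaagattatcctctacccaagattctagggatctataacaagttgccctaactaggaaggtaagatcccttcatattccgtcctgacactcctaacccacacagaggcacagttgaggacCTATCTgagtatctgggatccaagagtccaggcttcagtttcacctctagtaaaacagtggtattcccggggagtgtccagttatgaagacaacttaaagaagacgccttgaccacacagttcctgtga
Mcpt4, chr14:56062261-56062560, minus strand: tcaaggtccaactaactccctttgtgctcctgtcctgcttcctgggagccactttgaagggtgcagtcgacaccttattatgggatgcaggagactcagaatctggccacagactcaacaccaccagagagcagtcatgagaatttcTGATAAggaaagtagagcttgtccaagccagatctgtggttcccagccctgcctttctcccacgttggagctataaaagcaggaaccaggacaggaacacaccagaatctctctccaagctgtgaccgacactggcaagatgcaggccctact
Cpa3, chr3:20242132-20242431, minus strand: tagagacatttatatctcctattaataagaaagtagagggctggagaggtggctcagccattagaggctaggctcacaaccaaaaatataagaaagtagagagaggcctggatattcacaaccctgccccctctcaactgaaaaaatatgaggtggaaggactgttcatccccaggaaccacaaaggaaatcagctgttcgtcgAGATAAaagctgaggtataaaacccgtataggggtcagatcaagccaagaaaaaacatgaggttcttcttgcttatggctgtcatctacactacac

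Protease transcripts of mast cells were abundant in KO-F2 sperm libraries and scarce in every other library. Together the 9 genes summed to 465 CPM in KO-F2 replicate 1 (95% exact Poisson interval 453 to 478) and 233 CPM in replicate 2 (222 to 243). They summed to 24.3 and 27.3 CPM in the Ctrl-F1 sperm libraries, to 22.7 and 13.4 CPM in the KO-F1 sperm libraries, and to 3.85 to 8.84 CPM in liver. The 5 proteases gave 94.0% and 89.0% of these counts in the KO-F2 libraries, but 64.4% and 24.4% in Ctrl-F1 or 25.4% and 7.14% in KO-F1 sperm libraries, where Kit or Hdc could take the largest part. The plot of the 9 genes by library shows the proteases and Fcer1a set apart in KO-F2 spermatozoa, and Kit, Ms4a2 and Hdc without such a separation from all other sperm libraries. In bulk RNA, more cells of a type and more RNA per cell cannot be told apart.

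**Figure D1:**
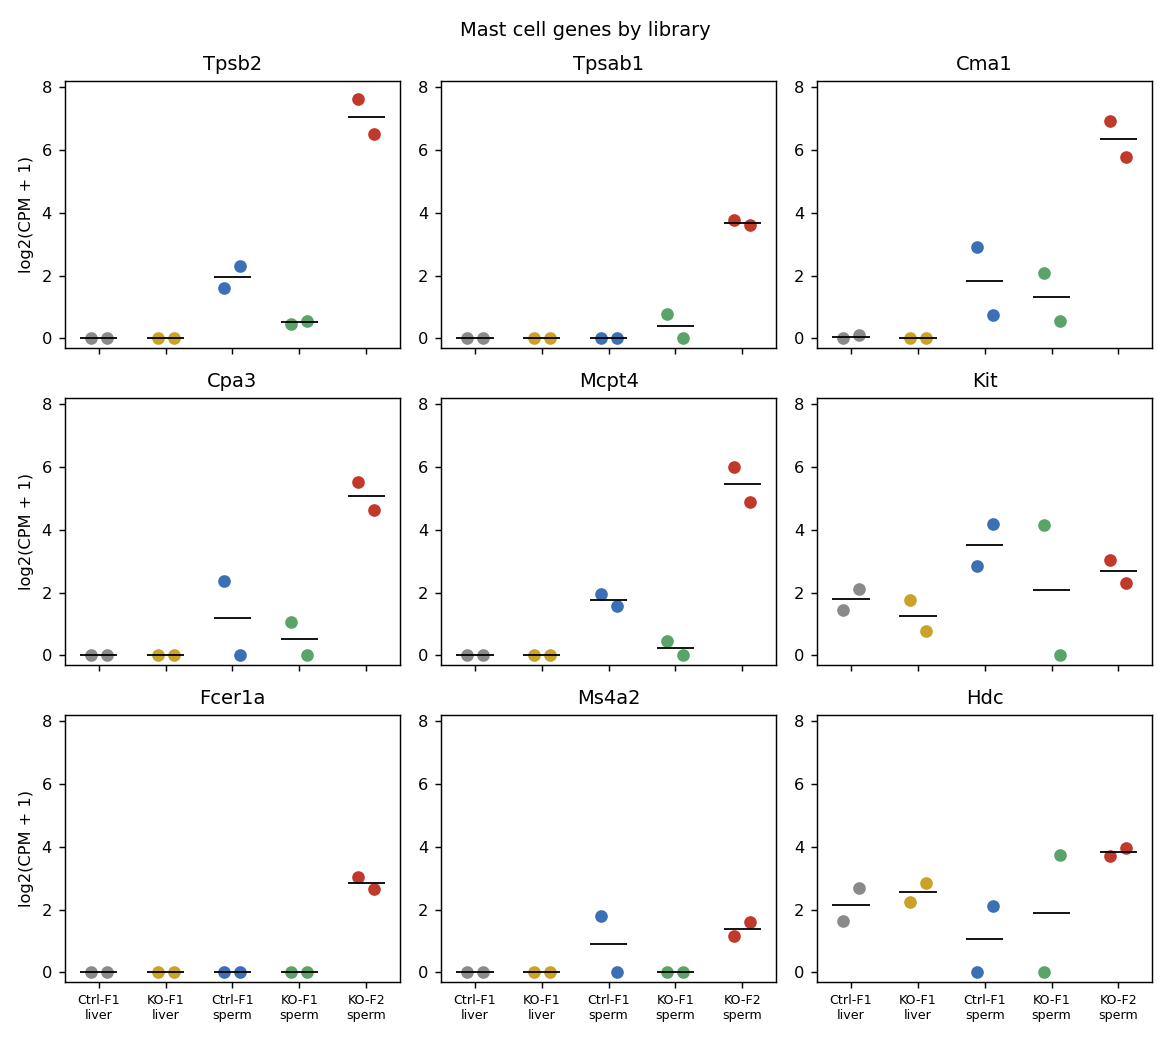
Level of each of the 9 mast cell genes on the log2(CPM + 1) scale (y axis) in the 5 groups (x axis), with 1 point per library (n = 2) and a line at the mean of the 2 plotted values. Tpsb2 lies at 195 and 89.5 CPM in KO-F2 spermatozoa and at most at 3.99 CPM elsewhere, while the Kit points of the 3 sperm groups overlap.

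The tryptases cleave proteins after basic residues and are stored in granules as tetramers. Tpsb2, which encodes the beta tryptase mMCP-6, had 5 and 6 counts in the Ctrl-F1, 1 and 1 in the KO-F1 and 2234 and 750 in the KO-F2 sperm libraries, and none in the 4 liver libraries. Its level was 195 and 89.5 CPM in KO-F2, 2.06 and 3.99 CPM in Ctrl-F1, with 0.360 and 0.480 in KO-F1 spermatozoa. Both KO-F1 values were under the detection limit of 3 counts. All of these values chose the set and carry no test. Scaled to the smallest sperm library, the KO-F2 values would still amount to 293 and 135 counts. Tpsab1, the neighbouring tryptase gene (mMCP-7), had 146 and 93 counts in the KO-F2, 2 and 0 in the KO-F1 and none in the Ctrl-F1 or liver libraries. The mean KO-F2 level of Tpsab1, 11.9 CPM, was at least 7.37-fold higher than 3 counts per Ctrl-F1 library.

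The chymase gene Cma1 (mMCP-5) had 1385 and 450 counts in KO-F2, 16 and 1 in Ctrl-F1, with 9 and 1 in KO-F1 spermatozoa, and 1 count in the 4 liver libraries together. Replicate 1 of both F1 groups held nearly all of the F1 counts, and the KO-F2 libraries stood at 121 and 53.7 CPM against at most 6.59 CPM in an F1 library. From summed counts, the Cma1 level in KO-F2 was 21.4 times that in Ctrl-F1 spermatozoa (95% exact interval 13.3 to 36.8). Mcpt4, a chymase that cleaves extracellular matrix proteins, had 730 and 242 counts in KO-F2, 7 and 3 in Ctrl-F1, with 1 and 0 in KO-F1 spermatozoa, and none in liver. Its summed level in KO-F2 was 19.3 times that in Ctrl-F1 (10.4 to 40.3). Cpa3, the granule carboxypeptidase that trims C-terminal residues from peptides and venom toxins, had 519 and 201 counts in KO-F2, 10 and 0 in Ctrl-F1, with 3 and 0 in KO-F1 spermatozoa, and none in liver. Its ratio was 14.3 (7.71 to 29.9). In each of these 3 genes the lowest KO-F2 library lay above the highest library of every other group.

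The receptor genes differed from one another. Fcer1a encodes the IgE-binding alpha chain of FcεRI and is the most restricted of the 3. It had 82 and 44 counts in KO-F2 spermatozoa and 0 in each of the other 8 libraries. Its mean of 6.20 CPM was at least 3.84-fold higher than 3 counts per Ctrl-F1 library. Ms4a2, the signal-amplifying beta chain of the same receptor, had 14 and 17 counts in KO-F2, 6 and 0 in Ctrl-F1 and 0 in KO-F1 spermatozoa and in liver. The Ms4a2 levels of 1.22 and 2.03 CPM in KO-F2 fell between those of the Ctrl-F1 libraries, 2.47 and 0 CPM, and the ratio of summed counts was 1.02 (0.421 to 3.00). Kit had 83 and 33 counts in KO-F2, 15 and 26 in Ctrl-F1, with 47 and 0 in KO-F1 spermatozoa. On the CPM scale Kit was 7.24 and 3.94 in KO-F2, 6.18 and 17.3 in Ctrl-F1, with 16.9 and 0 in KO-F1 spermatozoa, so that all 3 groups overlapped. Kit is also transcribed in germ cells, including a short transcript of spermatids, and gene counts do not separate these forms. Liver libraries of the Ctrl-F1 group had 25 and 47 Kit counts, and those of the KO-F1 group 29 and 8.

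Hdc encodes histidine decarboxylase, which makes histamine in mast cells, basophils and some other cells. It had 139 and 121 counts in KO-F2, 0 and 5 in Ctrl-F1, with 0 and 26 in KO-F1 spermatozoa. In CPM, Hdc was 12.1 and 14.4 in KO-F2 against 0 and 3.33 in Ctrl-F1, and KO-F1 replicate 2, at 12.5, lay between the KO-F2 libraries. The ratio of summed counts was 10.3 for KO-F2 over Ctrl-F1 (4.36 to 32.0). Unlike the proteases, Hdc was also present in every liver library, at 30 and 76 counts in the Ctrl-F1 and 46 and 71 in the KO-F1 group.

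The study compared the spermatozoa of KO-F2 males with those of Ctrl-F1 males to ask whether a difference reached the next generation. Tpsb2, whose KO-F2 level chose the set, aside, both KO-F2 libraries exceeded both Ctrl-F1 libraries in 6 of the 8 genes (all but Kit and Ms4a2), beside 35.0% of the 18680 genes with a count in these libraries. The count was also 6 when Rn45s and Lars2 were left out of the totals or when trimmed mean of M-values (TMM) scaling was used. The comparison uses the libraries that chose the set, so Tpsb2 was not tested. In edgeR's quasi-likelihood test, the log2 fold change was 4.33 ± 0.82 (SE, n = 2 against 2) for Cma1 (adjusted p = 0.159), 4.06 ± 0.65 for Mcpt4 (adjusted p = 0.149) and 3.78 ± 1.00 for Cpa3 (adjusted p = 0.212). With the same test, Tpsab1 gave an adjusted p of 0.170 and Fcer1a of 0.212. Their fitted log2 fold changes, 9.13 and 8.19, rest on a Ctrl-F1 group at 0 and are not bounds. Hdc (2.95 ± 1.35, edgeR adjusted p = 0.386), Kit (-1.25 ± 0.84, adjusted p = 0.557) and Ms4a2 (0.13 ± 1.26, adjusted p = 0.982) had smaller estimates with wide errors.

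None of the 8 tested genes passed both limits in edgeR, a change of 2-fold or more with an adjusted p below 0.01, and neither did any other of the 13149 genes (0.0%). At an unadjusted p under 0.05 edgeR had 5 of the 8 (Tpsab1, Cma1, Cpa3, Mcpt4 and Fcer1a), and 14.9% of all genes fitted. Apart from Kit, the 8 genes reached the fit only through their KO-F2 counts, since none of the others passed the same filter in the F1 libraries, so nothing is read from their count against that share. DESeq2 called Cma1 (adjusted p = 1.16e-05), Mcpt4 (0.00011) and Cpa3 (0.00668) as higher in KO-F2, among 277 of 12963 genes called (2.14%), of which 149 were higher (1.15%), and gave Tpsab1 an adjusted p of 0.0101. It gave 8 of the 9 genes an adjusted p here and 0 in the comparison of the F1 sperm groups. The DESeq2 calls thus also rest on the KO-F2 counts that chose the set, and they are a description. Without Ctrl-F1 replicate 1, which held 16 of the 17 Ctrl-F1 counts of Cma1 and all 10 of Cpa3, the log2 fold change was 6.76 for Cma1 and 10.9 for Cpa3. The calls in edgeR depended on single libraries. Without KO-F2 replicate 2, Cma1 (adjusted p = 0.000324) and Mcpt4 (0.00596) passed, and without Ctrl-F1 replicate 2, Tpsab1 (0.0084) and Hdc (0.00775) passed. Permuting 2 libraries against 2 exactly allows no two-sided p below 0.333. The plot of fold change against mean level shows Cma1, Mcpt4, Cpa3 and Tpsb2 above most genes of like level, and Kit and Ms4a2 within the bulk.

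**Figure D2:**
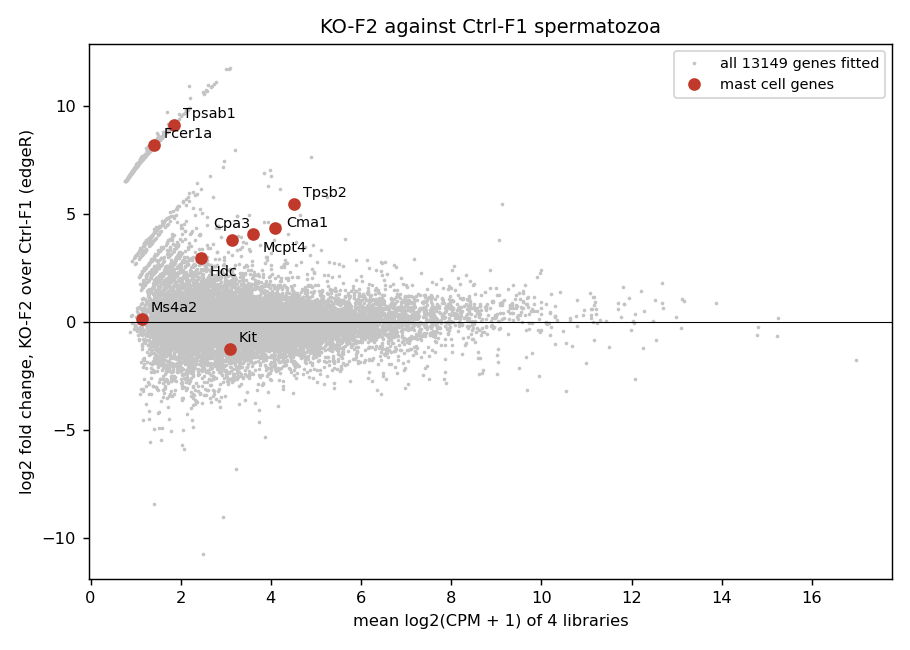
Log2 fold change of KO-F2 over Ctrl-F1 spermatozoa from edgeR (y axis) against the mean log2(CPM + 1) of the 4 libraries (x axis), with the 13149 genes fitted in grey and the 9 mast cell genes in red. Cma1 lies at 4.33, Mcpt4 at 4.06 and Kit at -1.25, and the line of points through Tpsab1 and Fcer1a is formed by genes with no Ctrl-F1 count.

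In KO-F1 against Ctrl-F1 spermatozoa, the question was whether the sons of Scml2-KO males differed. Only Kit passed edgeR's filter on low counts, with a log2 fold change of -1.01 ± 1.58 (SE, n = 2 against 2, adjusted p = 0.788), and edgeR called none of 10785 genes (0.0%), with 2105 at an unadjusted p under 0.05. DESeq2 called 390 of 5000 genes (7.8%) and gave no mast cell gene an adjusted p, so that none could be called. Both KO-F1 libraries were below both Ctrl-F1 libraries for Tpsb2 and Mcpt4, 2 of 9 genes beside 15.0% of the 16807 genes with a count, and none of the 9 lay above, beside 29.7%. The Tpsb2 and Mcpt4 counts in question were 0 to 7 per library, so differences among the F1 sperm libraries were hardly measurable at this depth. Replicate 2 of KO-F1, the library with the lowest sum, had 6 of the 9 genes at 0.

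KO-F2 against KO-F1 is the contrast that chose the set, and its values are given as a description. Both KO-F2 libraries exceeded both KO-F1 libraries in 7 of 9 genes, all but Kit and Hdc, while 31.5% of the 18714 genes with a count did so. Over all genes edgeR called 312 of 13517 (2.31%), and no call on a mast cell gene is given, because this contrast chose the set. The summed level of Tpsb2 was 366 times higher in KO-F2 on 2 KO-F1 counts (95% exact interval 101 to 3020), that of Mcpt4 238 times on 1 count (42.7 to 9418), that of Cpa3 58.8 times on 3 counts (20.0 to 286) and that of Cma1 45.0 times (24.4 to 93.9). Tpsab1, with 2 KO-F1 counts, had a ratio of 29.3 (8.02 to 243). Fcer1a was at least 4.92-fold higher than 3 counts per KO-F1 library, whereas Hdc had a ratio of 2.45 (1.63 to 3.82) and Kit of 0.605 (0.427 to 0.868).

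In liver, an organ with few mast cells in mice, 6 of the 9 genes had no count in any library and Cma1 had 1. A count of 0 allowed at most 0.210 to 0.265 CPM in these libraries. Kit and Hdc alone were tested in KO-F1 against Ctrl-F1 liver, and edgeR gave log2 fold changes of -0.65 ± 0.63 (adjusted p = 0.774) and 0.50 ± 0.49 (adjusted p = 0.779) at n = 2 against 2. No gene of 11505 was called (0.0%), with 1083 at an unadjusted p under 0.05, and DESeq2 called 20 of 7306 genes (0.274%) and gave no mast cell gene an adjusted p.

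Levels of different genes were compared per kilobase of exon, over the basic GENCODE transcripts of each gene. In KO-F2 spermatozoa, Tpsb2 stood at 122 and 56.1 CPM per kb and Cma1 at 111 and 49.2, so that the order of this pair was not resolved against the spread between the libraries. Mcpt4 followed at 57.5 and 26.1 and Cpa3 at 31.2 and 16.5 CPM per kb, and within each library the order of these 4 was the same. Fcer1a (7.17 and 5.26), Tpsab1 (6.08 and 5.30) and Hdc (5.07 and 6.03) formed a lower tier whose values overlapped. The place of Hdc rested on the transcripts counted, since with all GENCODE transcripts its exons rose from 2392 to 6389 bases and its level came to 1.90 and 2.26 CPM per kb, below Fcer1a and Tpsab1. Kit (1.38 and 0.749 CPM per kb) and Ms4a2 (0.434 and 0.721) were lowest. The plot of levels per exon length shows the same ordering beside the F1 libraries, in which no gene exceeded 6.05 CPM per kb.

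**Figure D3:**
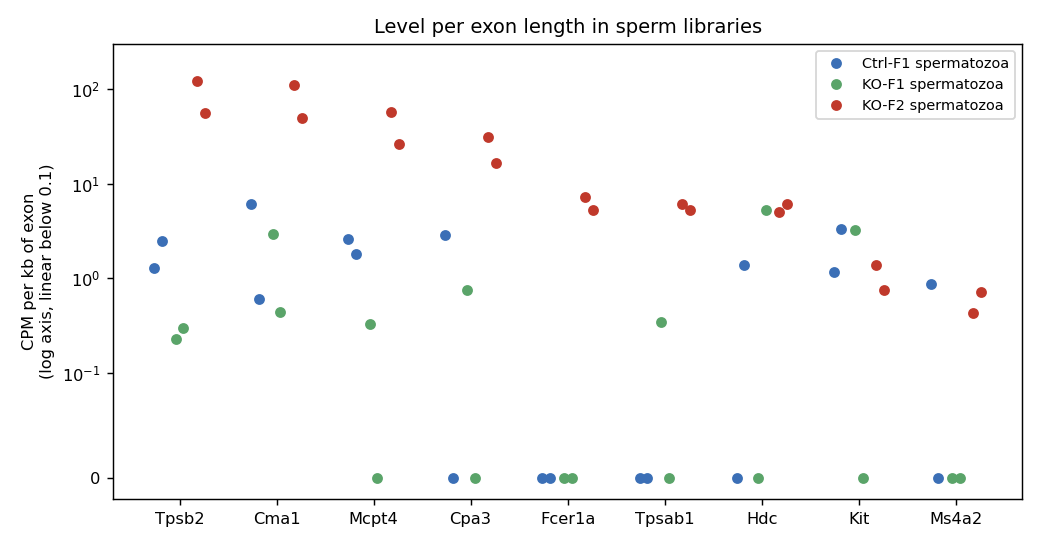
Level per kilobase of exon (y axis, log scale, linear below 0.1) of the 9 mast cell genes (x axis) in the sperm libraries, with 1 point per library (n = 2 per group). In KO-F2 the proteases other than Tpsab1 span 16.5 to 122 CPM per kb and the remaining genes lie at or below 7.17.

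The KO-F2 replicates did not hold equal amounts of these transcripts. The CPM of replicate 1 was 2.18 times that of replicate 2 for Tpsb2 (95% exact interval 2.00 to 2.37), 2.25 times for Cma1 (2.02 to 2.51), 2.21 times for Mcpt4 (1.91 to 2.56) and 1.89 times for Cpa3 (1.60 to 2.23). These 4 granule proteases thus shared a ratio within their counting intervals. Kit had a like ratio of 1.84 (1.22 to 2.84). For Tpsab1 the ratio was 1.15 (0.879 to 1.51) and for Hdc 0.840 (0.654 to 1.08), and both intervals lay below those of the 4 proteases. The intervals of Fcer1a (1.36, 0.934 to 2.01) and Ms4a2 (0.602, 0.275 to 1.30) included equality. For comparison, the gene with the highest KO-F2 level was taken from each of 12 lists of other cell types. The ratios of Crisp1 of the epididymal epithelium list (2.27, 2.22 to 2.32) and of Cd52 of the leukocyte list (2.15, 2.103 to 2.193) were like those of the 4 proteases. The ratio was therefore not particular to mast cell genes. Cd52 did not stand for its list, whose remaining 5 genes had ratios of 0.384 (Fcer1g) to 1.42 (Coro1a). Of the 12 highest genes, the other 10 had lower point values, among them the B cell gene Cd79b (1.29, 1.19 to 1.39), the macrophage gene Lyz2 (0.593, 0.583 to 0.604) and the beta-globin gene Beta-s (0.084, 0.0823 to 0.0858).

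**Figure D4:**
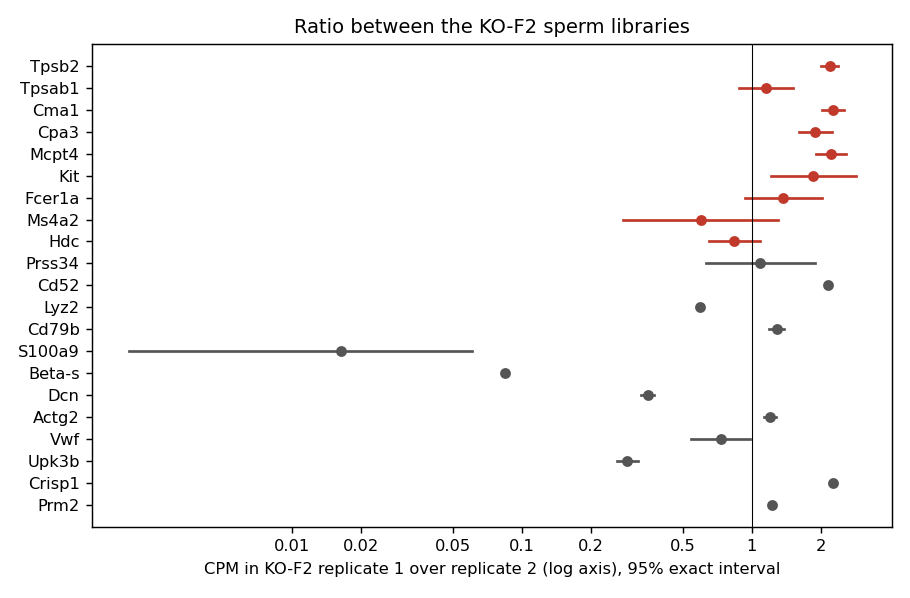
Ratio of CPM in KO-F2 replicate 1 over replicate 2 (x axis, log scale) for the 9 mast cell genes in red and the highest gene of each of 12 lists of other cell types in grey (y axis), where the bars are 95% exact intervals that cover counting error only. Tpsb2, Cma1, Mcpt4 and Cpa3 lie between 1.89 and 2.25, as does Cd52 at 2.15 and nearly Crisp1 at 2.27, while Hdc lies at 0.840 and Beta-s at 0.084.

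A further 56 genes of the mast cell pathway were listed by role. Both KO-F2 libraries were above both Ctrl-F1 libraries for 33 of the 56 and below for 3, beside 35.0% and 11.5% of all genes with a count. Some of the 33 had no Ctrl-F1 count and lay under 2.00 CPM, the highest F1 detection limit, in both KO-F2 libraries. For these a like level in Ctrl-F1 could have gone unseen. The filter let 41 of them pass, against 23 in the comparison of the F1 groups, so part of the 41 entered through KO-F2 counts and their median log2 fold change of 1.07, with 0.07 for all genes fitted, is a description only. No gene among them was called by edgeR, as of all genes (0.0%). At an unadjusted p under 0.05 edgeR had 15 of the 41, and 14.9% of all genes fitted. Nothing is read from that count, because of the same entry through KO-F2 counts. DESeq2 called 1, Syk (adjusted p = 1.38e-05), where it called 2.14% of all genes. Syk had 6, 0, 0 and 0 counts in the F1 sperm libraries, so its call rests on KO-F2 counts and is a description too. In the F1 sperm libraries 27 to 32 of the 56 genes exceeded 3 counts, and many of them serve other leukocytes too.

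The counts by role stand beside the same 35.0% of all genes higher and 11.5% lower than in both Ctrl-F1 libraries. They include the genes whose KO-F2 levels lay under the highest F1 detection limit. Among granule genes, 6 of 10 were higher in both KO-F2 libraries and 1 was lower. The mucosal chymases Mcpt1 and Mcpt2 and also Mcpt9 had no count in any sperm library. Srgn, the serglycin core protein, was at 103 and 110 CPM in KO-F2 and at 9.89 to 43.9 CPM in F1 spermatozoa (log2 fold change over Ctrl-F1 1.79 ± 0.71, edgeR adjusted p = 0.319). Serpinb1a, an inhibitor of chymotrypsin-like proteases, was at 30.1 and 25.2 CPM in KO-F2 and at most at 7.32 CPM in F1 spermatozoa. Of the surface receptors, 9 of 11 were higher in both KO-F2 libraries. Mrgprb1, a Mas-related receptor of connective tissue mast cells, had 152 and 46 counts in KO-F2 and none in F1 spermatozoa, and Mrgprb2, the receptor for basic secretagogues, named here after its values were seen, had 36 and 15 against none. Il3ra, the interleukin-3 receptor alpha chain, was at 73.0 and 56.5 CPM in KO-F2, 25.1 and 30.6 in Ctrl-F1, with 5.76 and 11.03 in KO-F1 spermatozoa. Fcer1g, the FcεRI gamma chain that other Fc receptors also use, was at 16.2 and 42.2 CPM in KO-F2 against 10.1 to 14.8 in F1 spermatozoa.

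Of 13 signalling genes below KIT and FcεRI, 9 were higher in both KO-F2 than in both Ctrl-F1 libraries. This and the next counts stand beside 35.0% of all genes higher and 11.5% lower. The kinase Syk was at 46.9 and 47.2 CPM in KO-F2 and 2.47 and 0 in Ctrl-F1, whereas the adaptor Gab2 was at 46.3 and 46.8 CPM against 37.9 and 78.5. Mediator genes were mixed, with 5 of 9 higher and 1 lower. Tph1, which starts serotonin synthesis, was at 6.81 and 4.41 CPM in KO-F2 and at 0 in F1 spermatozoa, Ltc4s of leukotriene C4 synthesis was at 12.6 and 26.2 against at most 2.66, and Ptgs1 of prostanoid synthesis was lower, at 75.4 and 93.2 against 103 to 351 CPM. Of 7 transcription factor genes, 3 were higher in both KO-F2 libraries, which is near the share of all genes and is not read as a result. Gata2 was at 43.2 and 43.9 CPM in KO-F2 and 42.4 and 56.5 in Ctrl-F1. Among 6 ligand and cytokine genes, 1 was higher and 1 lower, and Il33, an alarmin to which mast cells respond, was at 6.37 and 42.5 CPM in KO-F2 against 51.9 and 98.4 in Ctrl-F1.

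Markers of several other cell types moved with the same libraries. The counts of genes higher than in Ctrl-F1 stand beside 35.0% of all genes with a count. The DESeq2 calls stand beside 2.14% of all genes. Of 6 leukocyte common genes, 5 (Fcer1g, Ptprc, Coro1a, Laptm5 and Tyrobp) were higher in both KO-F2 than in both Ctrl-F1 libraries. These 5 summed to 373 and 565 CPM in KO-F2 against 56.9 to 80.3 CPM in F1 spermatozoa, and DESeq2 called Laptm5 and Tyrobp. Cd52 was at 3030 and 1411 CPM in KO-F2 and overlapped Ctrl-F1, at 6718 and 2387, with 30705 and 12135 in KO-F1 spermatozoa. Of 9 T, B and NK cell genes, all 9 were higher in both KO-F2 than in both Ctrl-F1 libraries. Some of the 9 had no Ctrl-F1 count and, in a KO-F2 library, a level under 2.00 CPM, the highest F1 detection limit. Together the 9 summed to 454 and 329 CPM in KO-F2 against 10.1 to 22.7 CPM in F1 spermatozoa. The 3 B cell genes of that list (Cd79a, Cd79b and Ms4a1) gave 413 and 288 of this, with 0 to 3.71 CPM in F1 spermatozoa, and Ms4a1 had no F1 count. DESeq2 called all 3, where it called 2.14% of all genes. The 8 macrophage genes summed to 2276 and 3987 CPM in KO-F2 and 220 to 628 in F1 spermatozoa, with 5 of 8 higher than in Ctrl-F1 and Lyz2 called by DESeq2. Lyz2 gave 83.9% and 80.7% of the KO-F2 counts, and the other 7 genes summed to 367 and 770 CPM against 172 to 359. The erythroid genes summed to 860 CPM in KO-F2 replicate 1 and 10405 in replicate 2 against 90.4 to 146 in F1 spermatozoa, nearly all of it Beta-s, and the 2 alpha-globin genes, near-identical copies, were listed at 0. Mesothelial and fat genes summed to 68.9 and 204 CPM in KO-F2 and to 10.6 to 20.2 CPM in F1 spermatozoa. Upk3b gave 61.0% and 71.9% of the KO-F2 counts, and the others summed to 26.9 and 57.3 CPM against 8.65 to 10.6. Of the 6 genes, 4 were higher in both KO-F2 than in both Ctrl-F1 libraries and 2 overlapped. Adipoq was among the latter, at 6.81 and 4.29 CPM in KO-F2 against 3.71 and 7.98 in Ctrl-F1. Basophil markers were scarce, at 3.84 and 3.34 CPM in KO-F2 and 0 in F1 spermatozoa, and most of these counts were Prss34, which mast cells also express, while Mcpt8 had 5 counts in 1 library.

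Fibroblast genes were at 179 and 451 CPM in KO-F2 and 301 to 760 in F1 spermatozoa. Endothelial genes were at 16.8 and 20.4 against 4.66 to 25.1, so the summed level of neither list was separated between generations. Without Dcn, its leading gene, the fibroblast list summed to 68.6 and 136.9 CPM in KO-F2 against 153.7 to 404.3 in F1 spermatozoa. Of the 8 fibroblast genes, 3 were lower in both KO-F2 than in both Ctrl-F1 libraries and 0 were higher, beside 11.5% and 35.0% of all genes. Neutrophil and eosinophil genes were at 1.83 and 18.8 CPM in KO-F2 and 0.720 to 4.66 in F1 spermatozoa. Smooth muscle genes were at 299 and 273 against 97.2 to 165 CPM, with Actg2 giving 82.0% or more of the KO-F2 counts. Actg2 alone was higher in both KO-F2 than in both Ctrl-F1 libraries and 2 of the 6 were lower, beside 35.0% and 11.5% of all genes. Without Actg2 the sums were 30.9 and 49.1 CPM in KO-F2 against 42.4 to 129 in F1 spermatozoa. Epididymal epithelium genes summed to 3329 and 1660 CPM in KO-F2 against 6681 to 20256, with Crisp1 as the largest part in every sperm library, and without Crisp1 to 472 and 399.9 CPM against 1233 to 2084. Of the 14 genes, 5 were lower in both KO-F2 than in both Ctrl-F1 libraries, beside 11.5% of all genes with a count. A further 4 were higher (Lcn5, Lcn9, Krt14 and Atp6v1b1), beside 35.0%, and 5 overlapped. DESeq2 called 4 as lower, where it called 2.14% of all genes in either direction. The part that these cell types, library depth or sequencing run have in the level of the mast cell genes was not tested. The plot of summed marker lists shows which lists separate the KO-F2 libraries from the F1 libraries and which do not.

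**Figure D5:**
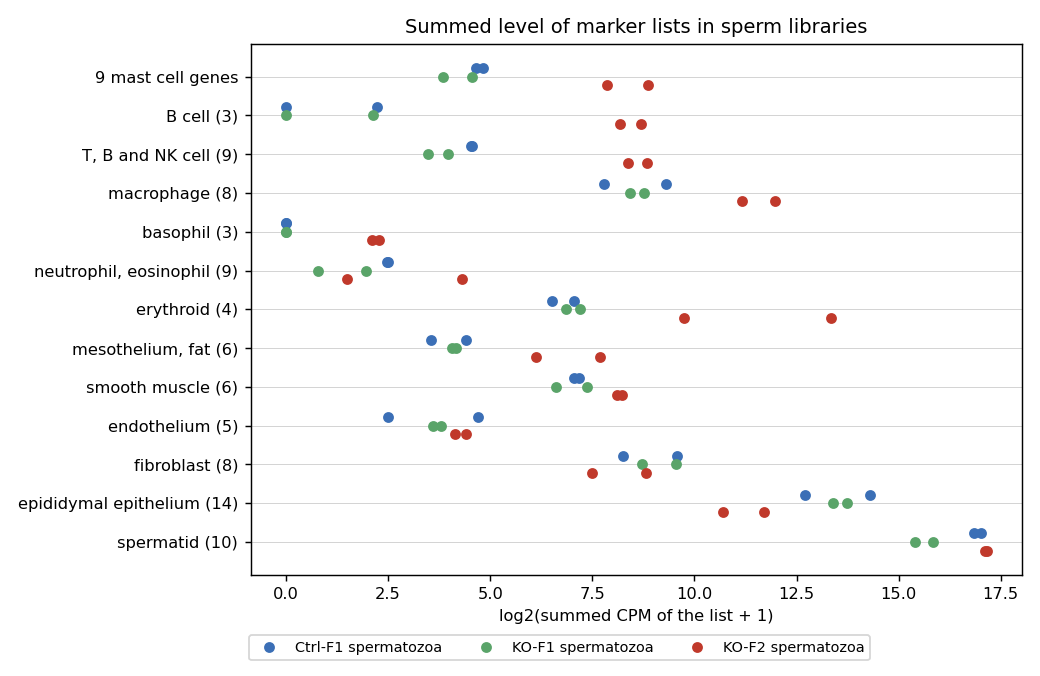
Summed level of each marker list on the log2(summed CPM + 1) scale (x axis) in the sperm libraries, with 1 point per library and the number of genes in parentheses (y axis). In KO-F2 the mast cell, both lymphocyte, macrophage, basophil, erythroid, mesothelium and fat, smooth muscle and spermatid lists lie to the right of every F1 library. The fibroblast, endothelial, and neutrophil and eosinophil lists overlap, and the epididymal epithelium list lies to the left. The leukocyte common list is not drawn.

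The genes closest in level to Tpsb2 over the 10 libraries were found by the root mean square difference of log2(TMM CPM + 1). They were Mcpt4 (0.776), Cd79a (0.851), Cma1 (0.854), Lyz1 (0.867) and Cd37 (0.967), in that order. For Cma1 they were Cxcr5 (0.714), Cpa3 (0.720), Mcpt4 (0.738), Gtsf1 (0.743) and Cd37 (0.786). Members and leukocyte genes were therefore interleaved on both lists. Cxcr5, a chemokine receptor of B cells, had 763 and 206 counts in KO-F2 and 0 to 14 in F1 spermatozoa, and Gtsf1, which acts in the piRNA pathway of germ cells, had 395 and 235 against 0 to 14. The measure compares levels and all points share the same 10 libraries, in which 2 hold nearly all of the signal.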

How the data were processed

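RNA-seq of 10 mouse libraries (4 liver, 6 spermatozoa) was used, and the other samples of the series were not analysed here. The values are raw read counts per gene symbol deposited by the authors. Per their methods and processing notes, single-end reads of 75 bases were aligned to GRCm38 (mm10) with HISAT2 2.1.0 and unique reads were counted with featureCounts. The annotation and the strand setting are not given in the sources used here, so reads of overlapping or antisense genes cannot be told apart. Liver libraries were poly(A)-selected and stranded, and sperm total RNA was amplified with a SMART-Seq v4 kit, so levels in the tissues were not tested against each other. Each file lists 23420 lines, and 4 lines with repeated symbols (0.0176% to 0.109% of counts) were left out.

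CPM are counts scaled to a library's total. Groups were compared with edgeR 4.0.16 in R 4.3.3 (TMM, filterByExpr with minimum count 10 and minimum total 15, quasi-likelihood F test, two-sided) and adjusted by Benjamini-Hochberg over all genes tested, and a call required a change of 2-fold or more with an adjusted p below 0.01. SE is the fold change over the square root of F. p-values reflect the spread between 2 biological replicates per group. Alternatives were DESeq2 1.42.0, its size factors, other filters, a replicate block, 1 model of 3 sperm groups, thinning, other scalings and leaving out each library. The crossed block, the rescaled counts of separated genes, exon lengths over all transcripts and list sums without the leading gene were added after seeing the data. Ratios of summed counts carry exact conditional binomial 95% intervals. Exon lengths are unions over the basic set of GENCODE M21, and positions and promoters are from RefSeq.

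The 9 genes and all lists were chosen with earlier results of these data known. Genes named beside the 9 are the 5 nearest to Tpsb2 and to Cma1, from each list at most 4 with the highest mean CPM over the 6 sperm libraries, any listed gene called, and Scml2. Others, namely Mcpt1, Mcpt2, Mcpt9 and Mrgprb2, were chosen after their values were seen. One gene of the T, B and NK cell list is not reported here and was left out of its sums and counts. The edgeR procedure was tested on simulated data.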

Additional observations from a re-analysis of the deposited data

Results flagged for a closer look

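The Tpsb2 and Mcpt4 levels of the 2 KO generations lay on opposite sides of the Ctrl-F1 sperm libraries. On the KO-F1 side neither gene passed edgeR's filter and DESeq2 gave neither an adjusted p, so no main test was made there. The KO-F1 and KO-F2 values of Tpsb2 are also those that chose the set. Both KO-F1 libraries were below both Ctrl-F1 libraries and both KO-F2 libraries were above them. For Tpsb2 the difference in mean CPM was -2.61 for KO-F1 minus Ctrl-F1 and 139 for KO-F2 minus Ctrl-F1. For Mcpt4 the differences were -2.26 and 43.8 CPM. The difference between generations was not tested, because that contrast chose the genes, and both comparisons share the Ctrl-F1 libraries. The KO-F1 side rests on 3 to 7 Ctrl-F1 counts per library against 0 or 1, and 2 of 9 genes below Ctrl-F1 stand beside 15.0% of all genes with a count. Groups of 2 libraries are too small to look for a library that lies apart.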

How the results depend on the processing

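For KO-F2 against Ctrl-F1 spermatozoa, the number of the 8 tested genes called was 0 in edgeR, 3 with DESeq2 and 3 with the replicate block, and 0 to 2 when each library was left out in turn. Same-numbered libraries are different animals, and their deviations correlated at -0.17 in liver and at -0.012, 0.15 and 0.054 in the sperm comparisons, so the replicate number was not taken as a pairing. Under the block Cma1, Cpa3 and Mcpt4 were called in that comparison. Crossed numbers in liver gave 0 called genes.

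Over all genes fitted in that comparison, the calls were 0 in edgeR, 39 without a filter, 1 with at least 10 counts in every library, 277 with DESeq2, 362 with the replicate block and 2 in 1 model of the 3 sperm groups. They were 103 without Ctrl-F1 replicate 1, 277 without Ctrl-F1 replicate 2, 75 without KO-F2 replicate 1 and 35 without KO-F2 replicate 2, with the lone library assumed to vary like the other group. In KO-F1 spermatozoa the calls were 0 in edgeR, 113 unfiltered, 200 with at least 10 counts, 390 with DESeq2, and 0 with the block or without any 1 library. In liver they were 0 in edgeR, 25 unfiltered, 1 with at least 10 counts, 20 with DESeq2, 2 with the replicate block and 4 to 107 without 1 library. Between KO-F2 and KO-F1, 312 genes were called in edgeR, 2552 unfiltered, 1805 with at least 10 counts, 2058 with DESeq2, 819 with the replicate block, 198 in 1 model of 3 sperm groups, 935 after thinning (1 random draw) and 230 to 2898 without 1 library. The cause of these shifts was not tested.

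Among single genes the sign turned for Kit in KO-F1 against Ctrl-F1 spermatozoa (log2 fold change -1.01, and -7.79 to 0.073 without 1 library) and for Ms4a2 in KO-F2 against Ctrl-F1 (0.13, and -0.62 to 6.52), both turning without Ctrl-F1 replicate 2. Leaving out 1 library moved the KO-F2 over Ctrl-F1 log2 fold change from 3.06 to 10.9 for Cpa3 and from 1.74 to 9.62 for Hdc, where Ctrl-F1 was then at 0, from 3.72 to 6.76 for Cma1 and from 3.41 to 4.56 for Mcpt4. Counting all GENCODE transcripts, an alternative chosen after seeing the data, moved the mean KO-F2 level of Hdc from 5.55 to 2.08 CPM per kb, and that of the other 8 genes by less than 1 SD. The summed level of the 9 genes moved by more than 1 SD to 36.8 CPM in Ctrl-F1 spermatozoa without Rn45s and Lars2, and to 7.15 in KO-F1 liver with TMM. The F1 sperm depth limits any difference under about 2.00 CPM.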
